A study of Mus musculus with 8 samples.

Results

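The DNA damage repair genes described here are a list of 43 mouse genes covering homologous recombination, mismatch repair, base and nucleotide excision, end joining and the damage checkpoint. Each was represented by the probe set that names it alone and has the highest mean over the 8 arrays, which gave 40 measured members among 12393 genes. *Fancd2*, *Xrcc2* and *Lig4* had no such probe set and were not analysed here. A total of 39 of the 40 lay above background, a log2 signal of 3.41, and *Ogg1* did not. The background was set at the 95th percentile of the signals of 43 genes that other tissues express.

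Immature myeloid cells (IMCs), taken here as CD11b+Gr-1+ cells, were sorted from the spleens of 4 male Tff2-/- mice aged 16 weeks on a C57BL/6 background. The mice had drunk 3% dextran sodium sulfate (DSS), which injures the colon, for 5 days and plain water for the next 14 days. Each mouse's cells were shared out between a culture with GM-CSF plus 3 µM mouse recombinant TFF2 (rTFF2) and a culture with GM-CSF alone, for 7 days each. Both groups therefore lacked *Tff2*, had been through DSS and received GM-CSF (Csf2), a growth factor of myeloid cells given at 5 nM in the sample labels, and differed in rTFF2, a secreted trefoil peptide. One Affymetrix array was run per culture (n = 4 mice in each group), and the values are log2 signals made by the authors with GCRMA.

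Cells repair broken, mismatched or chemically altered DNA by separate pathways that share polymerases, ligases and signalling kinases. Homologous recombination and much of mismatch and replication-coupled base excision repair act on newly copied DNA, and many of their genes are transcribed most in cells that are about to divide. Nucleotide excision removes bulky lesions at any time, and myeloid cells largely stop dividing as they mature.

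In cultures with GM-CSF plus rTFF2, 18 of the 40 repair genes (45.0%) were lower than in cultures with GM-CSF alone and 2 (5.00%) were higher, while 20 did not pass the test (limma with the mouse as a block, Benjamini-Hochberg adjusted p under 0.05 over all probe sets). Of the 2 that were higher, *Xrcc5* lay below background in all 4 cultures with GM-CSF alone. Over all 12393 genes, 13.3% were called lower and 14.5% higher. Over the 7470 genes above background, the shares were 18.5% and 22.8%. The 18 falls ranged between 1.18-fold and 2.87-fold with a median of 1.46-fold. Each had a negative difference in 4 of 4 mice, which a paired call with 4 mice makes likely. The differences of *Atr* in mouse 1 (-0.01) and *Atm* in mouse 4 (-0.04) were close to none. The median log2 change of the 40 genes was -0.24, beside -0.03 over all genes and 0.02 over genes above background. For 18 members all 4 values with rTFF2 lay below all 4 with GM-CSF alone, and for 2 they lay above, against 13.8% and 13.6% of all genes. Those 18 were 16 of the called falls, *Neil3*, which was not called, and *Ogg1*, which lay below background.

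By pathway, all 4 checkpoint kinases, 5 of 9 genes of homologous recombination and the Fanconi pathway, 4 of 9 of base excision and single-strand break repair, 2 of 4 of end joining, 2 of 3 others and 1 of 4 mismatch repair genes fell. None of the 7 nucleotide excision genes did. The 2 rises were *Xpc* of nucleotide excision and *Xrcc5* of end joining. These differences between pathways were not tested.

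**Figure D1:**
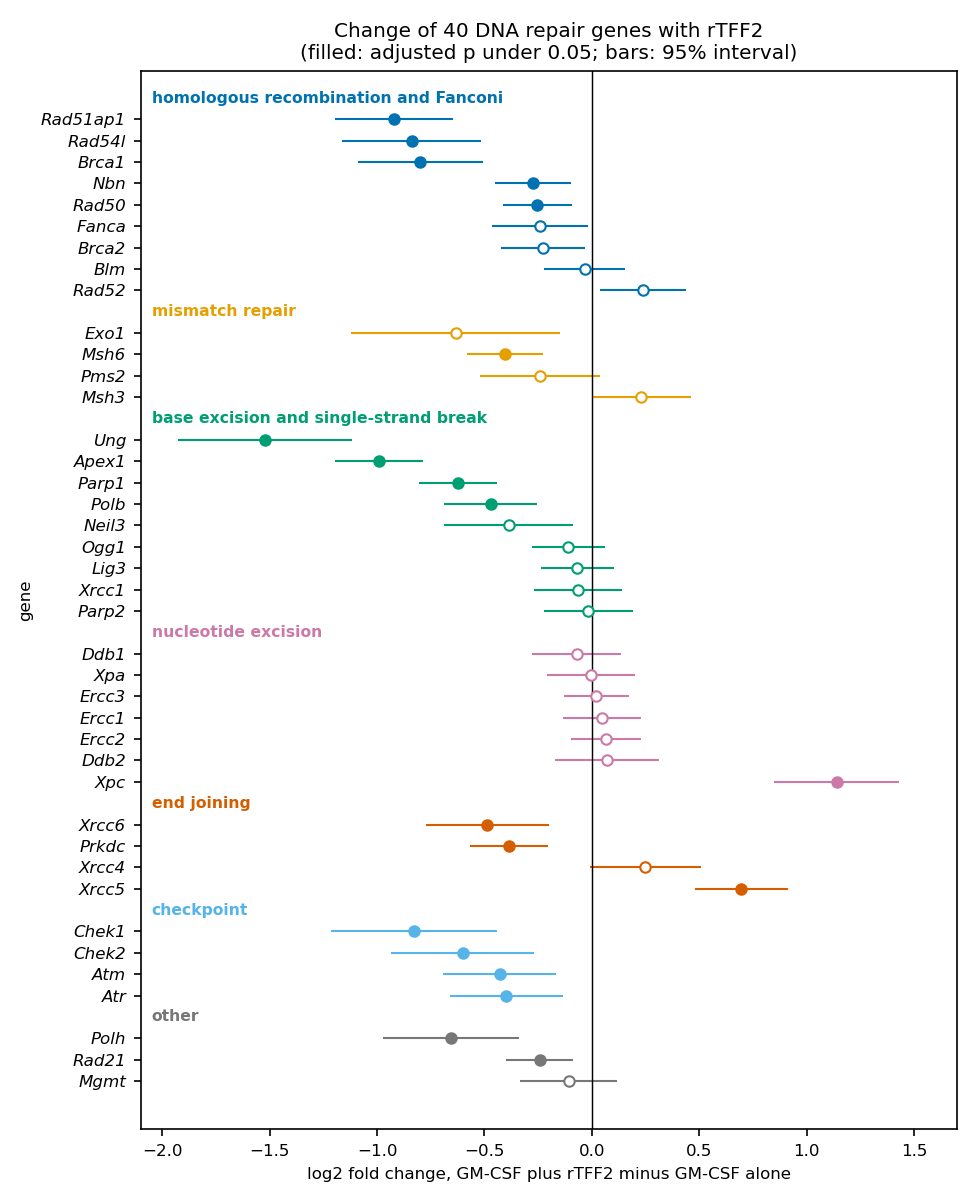
Change on the log2 scale (x axis, the cultures with rTFF2 minus those without) of the 40 measured repair genes, grouped by role. Points are the limma estimates with the mouse as a block, bars their 95% intervals and filled points have an adjusted p under 0.05; *Ung* lies lowest at -1.52 and *Xpc* highest at 1.14, and the other nucleotide excision genes lie close to 0.

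Cycling genes moved with the repair genes. Of 18 measured genes of the cell cycle and DNA replication, 16 fell and 0 rose (0 also at an unadjusted p under 0.05, limma). Over genes above background, 18.5% were called lower and 22.8% higher. The median log2 change of the 18 was -0.66, and their summed log2 signal was 13.69 to 14.28 with rTFF2 and 14.59 to 14.70 with GM-CSF alone. *Mki67* (log2 change -0.22) and *Tyms* (0.12) did not pass. In these bulk cultures, fewer cycling cells and less of these RNAs per cell cannot be told apart, and the part of cycling in the repair genes' change was not tested. The 3' minus 5' signal of *Actb* probe sets, a measure of RNA integrity, was 0.70 ± 0.05 with rTFF2 and 0.53 ± 0.09 with GM-CSF alone (SD, n = 4 each), higher with rTFF2 in 4 of 4 mice. The same measure for *Gapdh* was 0.26 ± 0.04 with rTFF2 and 0.22 ± 0.07 with GM-CSF alone, higher with rTFF2 in 3 of 4 mice. With the *Actb* measure as a covariate beside the mouse, 2 members fell (*Apex1* and *Polh*) and the same 2 rose, while the share of all genes called dropped to 3.95% lower and 4.22% higher. The median change of the members was then -0.20. All 4 *Actb* measures with rTFF2 (0.66 to 0.74) lay above all 4 with GM-CSF alone (0.42 to 0.62). RNA integrity and rTFF2 therefore cannot be told apart by this fit.

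Markers of cell types were read in the cells after the 7 days of culture, and not in the freshly sorted cells. All 10 measured myeloid genes lay above background and 5 of them rose. For this list and those below, 22.8% of all genes above background were called higher and 18.5% lower. *Itgam*, the gene of CD11b, stood at a log2 signal of 12.72 ± 0.14 with rTFF2 and 12.35 ± 0.20 with GM-CSF alone (SD, n = 4 each), and the genes of the Gr-1 epitope were not analysed here. Of the lists for other cells, 2 of 14 T and NK genes, 2 of 10 B cell genes, 0 of 9 erythroid genes and 3 of 13 stromal genes lay above background. *Cd3e*, *Cd79a* and *Klf1* were below background in both groups. All 3 of the stromal and endothelial genes above background rose (*Pecam1* by 0.79, *Acta2* by 0.76 and *Vwf* by 0.35 on the log2 scale), and the summed log2 signal of that list was 8.74 to 9.12 with rTFF2 and 8.14 to 8.44 with GM-CSF alone. Of the stromal genes below background, *Col1a1* (-0.29) and *Cdh5* (-0.30) were called lower, and the median log2 change of that list was -0.02. Of the T and NK genes above background, *Thy1* had a log2 fold change of 2.14 (limma adjusted p = 0.0639) and *Cd28* 0.64 (0.187), with a summed signal of the list of 8.45 to 8.94 with rTFF2 and 7.47 to 8.45 with GM-CSF alone. Below background, *Cd8a* (-0.33), *Cd5* (-0.36) and *Klrk1* (-0.50) were called lower, and no gene of that list was called higher. Of the B cell genes above background, *Cd22* rose by 0.63 and *Blnk* fell by 0.90 on the log2 scale, and the sums overlapped (6.33 to 6.54 with rTFF2 and 6.40 to 6.57 with GM-CSF alone). Of 6 megakaryocyte and platelet genes, 3 lay above background and all 3 rose, *Ppbp* by 2.76, *Pf4* by 1.57 and *Itga2b* by 0.99 on the log2 scale. *Gp9* (-0.05), *Gp5* (-0.15) and *Itgb3* (0.01) lay below background and were not called. The summed log2 signal of that list was 13.35 to 13.55 with rTFF2 and 10.94 to 12.19 with GM-CSF alone. *Pf4* alone stood at 13.32 ± 0.04 with rTFF2 and 11.75 ± 0.58 with GM-CSF alone (SD, n = 4 each) and made up most of that sum. The part of these lists in the repair genes' change was not tested.

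Promoters are shown for the 4 members that fell most, *Ung*, *Apex1*, *Rad51ap1* and *Rad54l*, so that a reader can see what stands before genes that fell together. The promoter of *Xpc*, the largest rise, was not used here. Each is the RefSeq window of GRCm38.p6 that covers 250 bases before and 50 bases after the start, written 5′ to 3′ on the gene's strand. Capitals mark CCAAT, the letters bound by NF-Y, on either strand (ATTGG on the other), and *Ung* had none.
*Ung*, chr5:114130185-114130484, plus strand: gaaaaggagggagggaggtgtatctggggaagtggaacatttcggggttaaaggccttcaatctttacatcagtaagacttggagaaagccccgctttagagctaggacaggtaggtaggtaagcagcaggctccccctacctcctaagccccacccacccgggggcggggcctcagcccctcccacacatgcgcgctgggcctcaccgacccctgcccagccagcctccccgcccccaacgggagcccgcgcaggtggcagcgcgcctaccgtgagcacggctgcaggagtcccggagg
*Apex1*, chr14:50924699-50924998, plus strand: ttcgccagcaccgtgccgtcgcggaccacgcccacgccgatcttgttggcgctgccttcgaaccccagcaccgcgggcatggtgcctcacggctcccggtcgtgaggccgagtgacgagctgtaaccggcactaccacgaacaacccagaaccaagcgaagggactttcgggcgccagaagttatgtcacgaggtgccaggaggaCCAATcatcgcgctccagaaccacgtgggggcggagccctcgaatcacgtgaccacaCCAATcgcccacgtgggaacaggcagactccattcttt
*Rad51ap1*, chr6:126939538-126939837, minus strand: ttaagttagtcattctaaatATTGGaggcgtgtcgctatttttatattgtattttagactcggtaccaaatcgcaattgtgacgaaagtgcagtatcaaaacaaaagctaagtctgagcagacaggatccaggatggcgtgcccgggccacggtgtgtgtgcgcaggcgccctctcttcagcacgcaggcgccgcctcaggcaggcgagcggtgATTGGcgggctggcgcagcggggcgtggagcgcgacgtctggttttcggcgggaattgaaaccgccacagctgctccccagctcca
*Rad54l*, chr4:116123641-116123940, minus strand: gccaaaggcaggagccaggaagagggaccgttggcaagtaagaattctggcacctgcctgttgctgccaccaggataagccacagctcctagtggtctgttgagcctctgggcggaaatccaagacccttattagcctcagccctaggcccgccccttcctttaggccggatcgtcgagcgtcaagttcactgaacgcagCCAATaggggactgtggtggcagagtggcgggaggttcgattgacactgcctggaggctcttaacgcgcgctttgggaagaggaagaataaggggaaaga

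In cycling cells many replication genes are switched on by E2F factors. The letters searched for E2F were TTTCCCGC, TTTGGCGC, TTTCGCGC and TTTGCCGC on both strands. Of the 31 members with a promoter in the table, 5 (16.1%) held one of them in any of their windows, beside 2.60% of 27025 genes and 2.26% of 32851 windows. They were 3 of 13 members that fell, *Msh6*, *Xrcc6* and *Chek2*, and 2 of 17 that did not pass, *Brca2* and *Msh3*. CCAAT stood in 8 of 13 that fell and 7 of 17 that did not pass, 16 of 31 in all (51.6%), beside 41.1% of genes and 37.4% of windows. TTTGAA, the core of the cell cycle homology region, stood in 0 of 31, beside 20.2% of genes and 17.9% of windows. A match describes letters and not binding. The 3 members that fell and held an E2F match follow, chosen after their values were seen, with the longer capitals marking E2F (TTTCCCGC, or GCGGGAAA on the other strand) and the shorter ones CCAAT.
*Msh6*, chr17:87974800-87975099, plus strand: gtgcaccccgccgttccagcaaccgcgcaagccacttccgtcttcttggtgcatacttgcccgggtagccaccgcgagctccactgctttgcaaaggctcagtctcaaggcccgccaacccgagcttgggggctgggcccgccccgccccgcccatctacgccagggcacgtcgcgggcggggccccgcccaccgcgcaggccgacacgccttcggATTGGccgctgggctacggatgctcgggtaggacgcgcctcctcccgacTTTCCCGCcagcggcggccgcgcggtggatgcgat
*Xrcc6*, chr15:82016119-82016418, plus strand: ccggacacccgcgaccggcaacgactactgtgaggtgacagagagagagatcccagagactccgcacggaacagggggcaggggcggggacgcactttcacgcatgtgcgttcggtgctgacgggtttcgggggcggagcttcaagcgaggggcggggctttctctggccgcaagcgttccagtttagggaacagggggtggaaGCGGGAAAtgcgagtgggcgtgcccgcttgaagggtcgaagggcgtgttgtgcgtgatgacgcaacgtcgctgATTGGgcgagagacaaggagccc
*Chek2*, chr5:110839733-110840032, plus strand: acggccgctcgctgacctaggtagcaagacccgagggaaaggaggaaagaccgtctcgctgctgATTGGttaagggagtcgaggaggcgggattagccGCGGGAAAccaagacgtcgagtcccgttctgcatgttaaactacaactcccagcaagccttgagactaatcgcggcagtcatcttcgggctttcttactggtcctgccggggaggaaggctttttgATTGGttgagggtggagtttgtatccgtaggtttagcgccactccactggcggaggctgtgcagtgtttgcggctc

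Homologous recombination rebuilds a broken chromosome from its sister copy. *Rad51ap1*, which promotes strand pairing in this pathway, fell 1.89-fold. Its log2 signal in mice 1 to 4 was 7.41, 8.21, 7.91 and 8.04 with rTFF2, against 8.71, 9.11, 8.81 and 8.61 with GM-CSF alone (log2 fold change -0.92 ± 0.12 SE, adjusted p = 0.00193, limma). The groups did not overlap, and mouse 1 had the lowest value with rTFF2. Its other 3 probe sets were called lower too. Its promoter, above, held CCAAT at 2 places.

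*Rad54l*, a DNA translocase of the strand exchange, was at 4.42, 5.17, 4.90 and 4.97 with rTFF2, against 5.80, 5.86, 5.63 and 5.52 with GM-CSF alone (log2 fold change -0.84 ± 0.14 SE, adjusted p = 0.00507, limma). All values with rTFF2 were below all those with GM-CSF alone, and its other 2 probe sets also fell. *Brca1*, which steers breaks into this pathway, was at 5.86, 6.66, 6.43 and 6.57 with rTFF2, against 7.11, 7.15, 7.16 and 7.30 with GM-CSF alone (log2 fold change -0.80 ± 0.12 SE, adjusted p = 0.00405, limma). The GM-CSF alone cultures were tightly grouped and the rTFF2 culture of mouse 1 stood lowest. The other 3 *Brca1* probe sets had means below background in both groups.

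*Rad50* and *Nbn* encode subunits of the MRN complex, which holds broken ends and activates ATM. *Rad50* averaged 7.07 ± 0.14 with rTFF2 and 7.33 ± 0.07 with GM-CSF alone (SD, n = 4 each, limma adjusted p = 0.0341). *Nbn* averaged 7.09 ± 0.23 with rTFF2 and 7.37 ± 0.33 with GM-CSF alone (SD, n = 4 each, limma adjusted p = 0.0367), and its groups overlapped while each mouse fell. Neither passed without the mouse as a block (adjusted p = 0.0577 for *Rad50* and 0.290 for *Nbn*, limma) or when any 1 mouse was left out (0.0657 to 0.123 for *Rad50* and 0.0591 to 0.143 for *Nbn*).

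The other 4 genes of this pathway did not pass. *Brca2*, a mediator of strand exchange at breaks, had a log2 fold change of -0.23 (95% interval -0.42 to -0.03) with an adjusted p of 0.0914 in limma. *Fanca*, of the Fanconi core complex for crosslinks, had -0.24 (-0.46 to -0.02) overall and -0.34 without mouse 4, with limma adjusted p of 0.109 and 0.0390. *Rad52*, a strand annealing protein, had 0.24 (0.04 to 0.44) and was higher in 4 of 4 mice with an adjusted p of 0.0815 in limma. Its signal lay close to background, at a mean of 3.73 with rTFF2 and 3.49 with GM-CSF alone. *Blm*, a helicase that dissolves recombination intermediates, had -0.03 (-0.22 to 0.16). The list thus held members in both directions among the genes that missed the threshold.

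**Figure D2:**
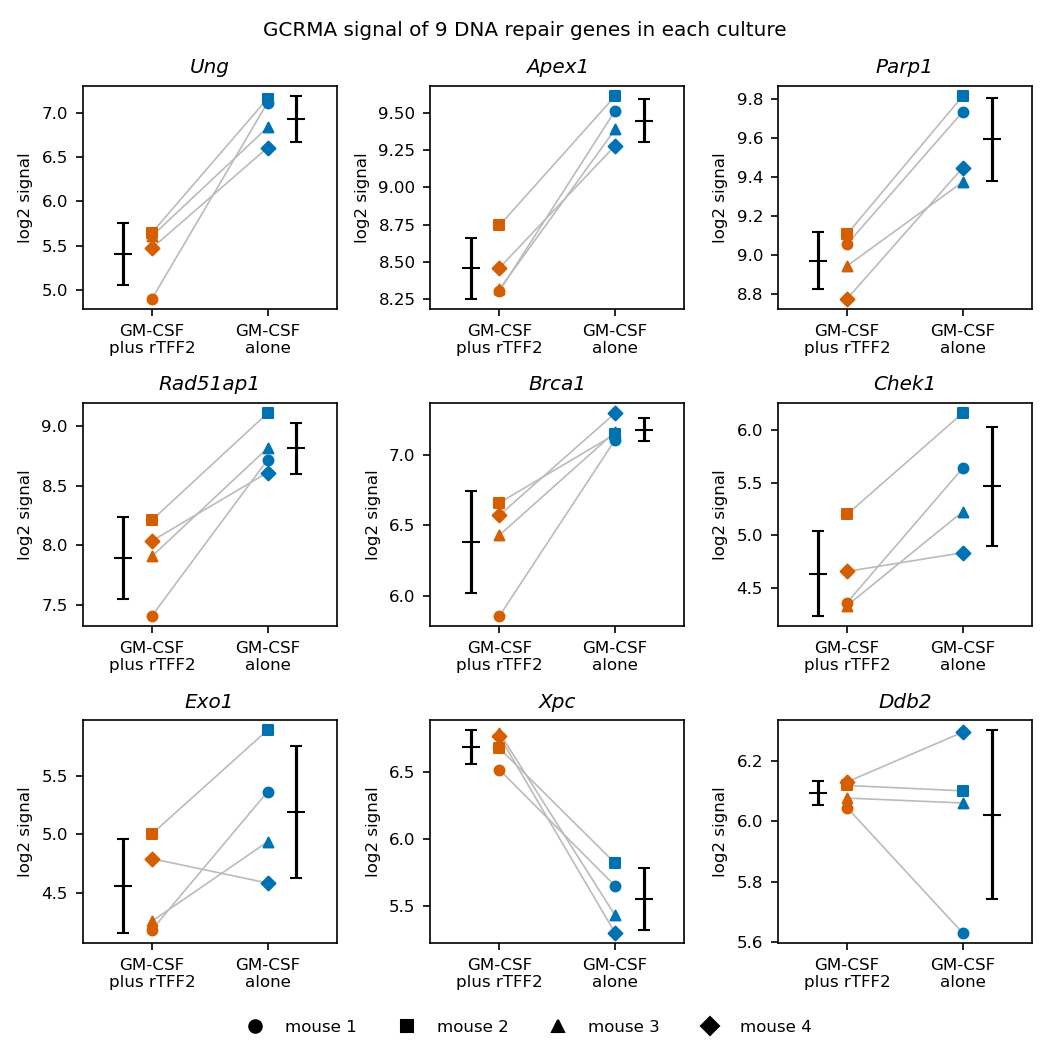
Log2 GCRMA signal (y axis) of 9 repair genes in each culture, GM-CSF plus rTFF2 on the left and GM-CSF alone on the right, with lines joining the cultures of a mouse and bars giving mean ± SD (n = 4). The groups are apart for *Ung*, *Apex1*, *Parp1*, *Rad51ap1*, *Brca1* and *Xpc*, and overlap for *Chek1*, *Exo1* and *Ddb2*; each panel has its own scale.

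Mismatch repair corrects copying errors behind the replication fork. *Msh6*, a mismatch recognition protein, was at 7.85, 8.26, 8.12 and 7.96 with rTFF2, against 8.42, 8.58, 8.45 and 8.37 with GM-CSF alone (log2 fold change -0.41 ± 0.07 SE, adjusted p = 0.00804, limma). The groups did not overlap, and this was the 1 called member of the pathway. *Exo1*, the exonuclease that removes the faulty strand, was at 4.18, 5.00, 4.25 and 4.79 with rTFF2, against 5.36, 5.89, 4.93 and 4.58 with GM-CSF alone. It was lower with rTFF2 in mice 1 to 3 and higher in mouse 4, the log2 fold change was -0.63 (95% interval -1.12 to -0.15) and the adjusted p was 0.0621 in limma. Without mouse 4 these were -0.92 and 0.00642.

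*Msh3*, a recognition protein that favours longer loops, was at 5.05, 5.17, 4.92 and 5.33 with rTFF2, against 4.79, 5.00, 4.95 and 4.81 with GM-CSF alone. Its groups overlapped and the log2 fold change was 0.23 (95% interval -0.00 to 0.46, limma adjusted p = 0.134). *Pms2*, the endonuclease subunit that nicks the new strand, had -0.24 (-0.52 to 0.04), with adjusted p of 0.188 overall and 0.0359 without mouse 4 in limma.

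Base excision repair held the deepest falls. *Ung*, the glycosylase that removes uracil from DNA, fell 2.87-fold, the only member to fall more than 2-fold. It was at 4.90, 5.64, 5.61 and 5.47 with rTFF2, against 7.11, 7.16, 6.83 and 6.60 with GM-CSF alone (log2 fold change -1.52 ± 0.17 SE, adjusted p = 0.00125, limma). The difference was largest in mouse 1, at -2.21, and smallest in mouse 4, at -1.13.

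*Apex1*, the endonuclease that cuts at the site a glycosylase leaves, was at 8.31, 8.75, 8.32 and 8.46 with rTFF2, against 9.51, 9.61, 9.39 and 9.28 with GM-CSF alone (log2 fold change -0.99 ± 0.09 SE, adjusted p = 0.000542, limma). This 1.99-fold fall separated the groups by more than their spread, and the other 2 *Apex1* probe sets had -1.11 and -0.87. *Parp1*, which senses strand breaks and marks them with poly(ADP-ribose), was at 9.06, 9.11, 8.95 and 8.78 with rTFF2, against 9.74, 9.82, 9.38 and 9.45 with GM-CSF alone (log2 fold change -0.62 ± 0.08 SE, adjusted p = 0.00169, limma). Its groups were apart, and its other 2 probe sets had -0.69 and -0.73.

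*Polb*, the polymerase that fills the gap, averaged 8.47 ± 0.12 with rTFF2 and 8.94 ± 0.17 with GM-CSF alone (SD, n = 4 each, limma adjusted p = 0.0102). A further *Polb* probe set had -0.50 and was called, and another had 0.10 and was not. *Neil3*, a glycosylase for oxidized bases, had -0.39 (95% interval -0.69 to -0.09), with no overlap between the groups and a limma adjusted p of 0.0650. The ligation and scaffold genes *Xrcc1* (log2 fold change -0.06) and *Lig3* (-0.07) and the second poly(ADP-ribose) polymerase *Parp2* (-0.02) had intervals between -0.27 and 0.19. *Ogg1*, the glycosylase for 8-oxoguanine, was below background on all 8 arrays and no fold change is given.

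Of the 7 listed genes of nucleotide excision repair, 1 (14.3%) rose and 0 fell, beside 14.5% higher and 13.3% lower over all genes. At an unadjusted p under 0.05, 0 of the 7 fell as well (limma). Among 11 further genes of this pathway, given below, 2 fell and 1 rose. *Xpc*, the sensor of helix distortion across the genome, rose 2.20-fold. It was at 6.52, 6.68, 6.79 and 6.77 with rTFF2, against 5.65, 5.82, 5.43 and 5.30 with GM-CSF alone (log2 fold change 1.14 ± 0.12 SE, adjusted p = 0.00107, limma). The groups did not overlap, and the rise was 0.86 to 1.47 in the 4 mice.

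The other 6 listed genes of the pathway had log2 fold changes between -0.07 and 0.07. *Ercc2*, a helicase of TFIIH, was at 3.57, 3.70, 3.50 and 3.52 with rTFF2, against 3.55, 3.52, 3.45 and 3.50 with GM-CSF alone, close to background in both groups. *Ddb1*, the adaptor of the UV damage-binding ligase, was at 8.22, 8.36, 8.42 and 8.50 with rTFF2, against 8.51, 8.20, 8.52 and 8.57 with GM-CSF alone. Both overlapped between groups, with 95% intervals of -0.10 to 0.23 for *Ercc2* and -0.28 to 0.14 for *Ddb1*. *Ddb2* (0.07), the lesion-binding partner of DDB1, *Xpa* (-0.00), which verifies the lesion, *Ercc1* (0.05), of the nuclease that cuts beside it, and *Ercc3* (0.02), the other TFIIH helicase, had intervals that lay between -0.21 and 0.31. Changes beyond 1.41-fold therefore lay outside the interval of each of these 6 genes, which for *Ercc2* limits only a signal close to background.

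End joining reseals breaks without a template. *Prkdc*, the catalytic subunit of DNA-PK, was at 6.62, 6.36, 6.56 and 6.70 with rTFF2, against 7.04, 6.87, 6.97 and 6.91 with GM-CSF alone (log2 fold change -0.39 ± 0.08 SE, adjusted p = 0.0109, limma). *Xrcc6*, which encodes the Ku70 subunit that caps the ends, was at 6.39, 6.76, 6.26 and 6.58 with rTFF2, against 6.80, 6.89, 7.15 and 7.09 with GM-CSF alone (log2 fold change -0.49 ± 0.12 SE, adjusted p = 0.0255, limma). Both pairs of groups were apart, and *Xrcc6* lost its call without mouse 1, 3 or 4 (adjusted p = 0.0704, 0.0739 and 0.0844, limma).

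*Xrcc5*, which encodes the Ku80 partner, moved the opposite way at the edge of detection. It was at 3.66, 3.82, 3.60 and 3.56 with rTFF2, against 3.11, 3.32, 2.74 and 2.69 with GM-CSF alone, where all 4 cultures lay below background. Its log2 fold change on the values as measured was 0.70 (limma adjusted p = 0.00215). Taken against the background level it was at least 1.19-fold higher with rTFF2, and this smaller change was not tested. It had 1 probe set, so no other measured the gene. *Xrcc4*, the partner of ligase IV, had a log2 fold change of 0.25 (95% interval -0.01 to 0.51, limma adjusted p = 0.146) on its brighter probe set and 0.63 on the other, which was called higher (adjusted p = 0.00367).

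The checkpoint kinases halt the cell cycle on damaged DNA. *Chek1*, the effector kinase of stalled forks, was at 4.36, 5.20, 4.33 and 4.66 with rTFF2, against 5.64, 6.16, 5.23 and 4.84 with GM-CSF alone (log2 fold change -0.83 ± 0.16 SE, adjusted p = 0.0109, limma). The groups overlapped, with mouse 2 high and mouse 4 low among the GM-CSF alone cultures, while each mouse fell. *Chek2*, the effector kinase of breaks, was at 5.83, 6.39, 5.97 and 6.20 with rTFF2, against 6.72, 6.69, 6.94 and 6.44 with GM-CSF alone (log2 fold change -0.60 ± 0.14 SE, adjusted p = 0.0204, limma). Its groups did not overlap.

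*Atm*, the kinase that answers breaks, was at 5.88, 6.01, 5.91 and 6.24 with rTFF2, against 6.51, 6.63, 6.33 and 6.27 with GM-CSF alone (log2 fold change -0.43 ± 0.11 SE, adjusted p = 0.0293, limma). The groups came close in mouse 4, where the difference was -0.04. *Atr*, the kinase that answers single-stranded DNA, averaged 7.24 ± 0.07 with rTFF2 and 7.63 ± 0.28 with GM-CSF alone (SD, n = 4 each, limma adjusted p = 0.0381). Its difference in mouse 1 was -0.01. Without the block, *Chek1* and *Atr* did not pass (adjusted p = 0.0690 and 0.0519, limma). Calls were also lost when mice were left out, with limma adjusted p of 0.0507 for *Chek1* without mouse 3, 0.0825 and 0.0800 for *Chek2* without mouse 1 or 3, 0.0908 to 0.115 for *Atm* without mouse 1, 2 or 3, and 0.0897 to 0.133 for *Atr* without mouse 2, 3 or 4.

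Of the remaining members, *Polh*, a polymerase that copies past UV lesions, was at 6.83, 6.98, 6.52 and 6.59 with rTFF2, against 7.56, 7.18, 7.60 and 7.22 with GM-CSF alone (log2 fold change -0.66 ± 0.13 SE, adjusted p = 0.0122, limma). The groups were apart, and the call was lost without mouse 1 (adjusted p = 0.0507, limma). *Rad21*, a cohesin subunit that holds sister chromatids together, was at 11.44, 11.58, 11.43 and 11.48 with rTFF2, against 11.70, 11.88, 11.64 and 11.67 with GM-CSF alone. Its fall was small, with a log2 fold change of -0.24 (limma adjusted p = 0.0356), and was not called when any 1 mouse was left out (0.0767 to 0.120). *Mgmt*, which reverses alkylation of guanine, was at 3.63, 3.40, 3.51 and 3.49 with rTFF2, against 3.50, 3.71, 3.49 and 3.76 with GM-CSF alone. These values overlapped and lay close to background, with a log2 fold change of -0.11 (95% interval -0.33 to 0.12).

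The members varied between mice. Among the 18 that fell, the largest fall was in mouse 1 for 9 genes, mouse 2 for 3, mouse 3 for 4 and mouse 4 for 2, and the smallest was in mouse 4 for 11. The median difference of these 18, which were picked by their fall in the same values, was -0.66, -0.50, -0.62 and -0.53 in mice 1 to 4. Over all 40 members it was -0.275, -0.253, -0.280 and -0.158 in mice 1 to 4. The summed log2 signal of the cycling genes differed by -0.98, -0.42, -0.62 and -0.42 in the same order. With mouse 1 left out 11 members were called lower, with mouse 2 left out 13, with mouse 3 left out 10 and with mouse 4 left out 16, beside 8.05%, 11.4%, 8.03% and 9.30% of all genes. The 9 members called lower in each of these fits were *Apex1*, *Brca1*, *Msh6*, *Parp1*, *Polb*, *Prkdc*, *Rad51ap1*, *Rad54l* and *Ung*, and *Xpc* and *Xrcc5* were called higher in each.

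**Figure D3:**
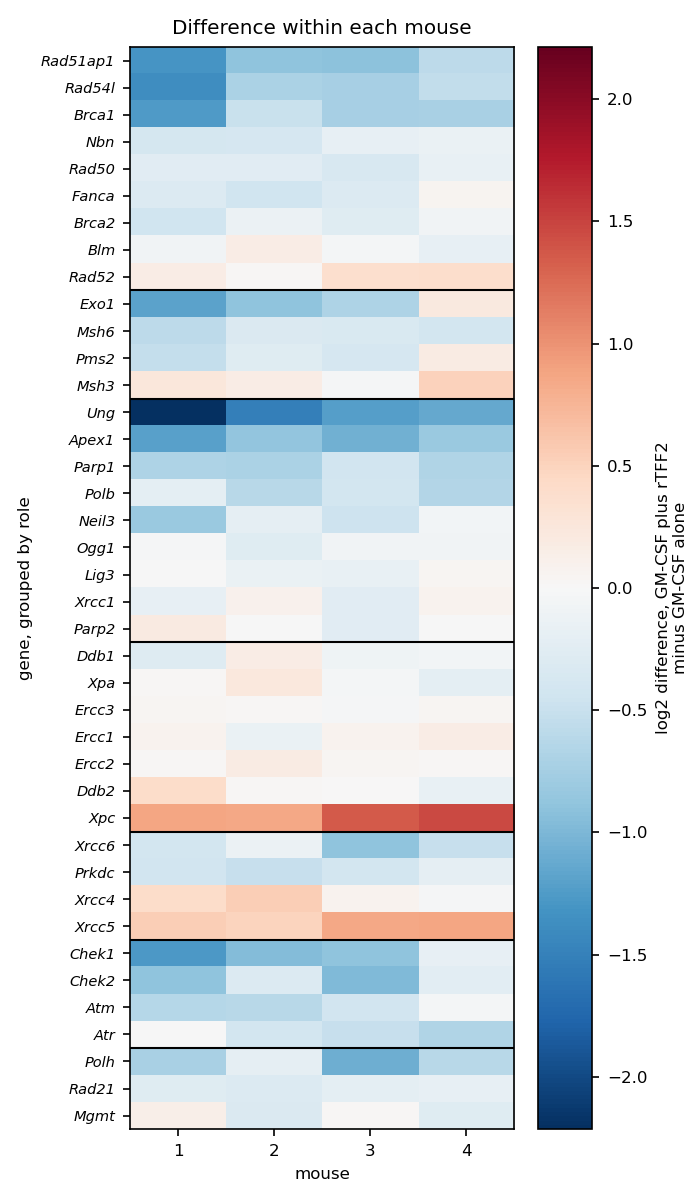
Log2 difference between the GM-CSF plus rTFF2 and the GM-CSF alone culture of each mouse (columns) for the 40 repair genes (rows, grouped by role with lines between groups; blue is lower and red higher with rTFF2). *Ung* in mouse 1 has the deepest colour at -2.21, and *Xpc* is red in all 4 mice.

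Of the 20 members that did not pass, 5 had an unadjusted p under 0.05 and 4 an adjusted p under 0.1 (*Brca2*, *Rad52*, *Exo1* and *Neil3*). The 95% interval lay within 1.41-fold in either direction for 16 of them. It reached beyond for *Pms2*, *Exo1*, *Neil3* and *Xrcc4*. The 16 include *Ogg1*, below background, and *Rad52*, *Ercc2* and *Mgmt*, close to it. For these genes a narrow interval limits the signal and not the amount of RNA. Where genes had over 1 probe set above background, 16 of 20 further probe sets had the call of the probe set used, and the exceptions were those of *Polb*, *Polh*, *Rad21* and *Xrcc4*.

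Further genes of the same pathways, 105 listed and 76 measured, were examined beside the members. Of these 27 (35.5%) fell and 3 (3.95%) rose, with a median log2 change of -0.12, beside 13.3% lower and 14.5% higher over all genes and 18.5% and 22.8% over genes above background. The falls comprised 11 of 25 genes of homologous recombination and the Fanconi pathway, 5 of 7 of mismatch repair and its replication partners, 2 of 11 of base excision and 2 of 11 of nucleotide excision (18.2% each, no more than the share of all genes above background), 0 of 3 of end joining (0 also at an unadjusted p under 0.05, limma), 5 of 11 of the checkpoint and 2 of 8 others. The 5 falls of the mismatch repair group were all replication partners, *Pcna*, *Rfc1*, *Rfc3*, *Rfc4* and *Rfc5*. Falls of other groups also included genes with a part in replication. These were *Rpa1*, *Rpa2*, *Rpa3* and *Dna2* of homologous recombination, *Fen1* and *Lig1* of base excision, and *Timeless* and *Tipin* of the checkpoint, among others. *Mlh3* (log2 fold change 0.14, limma adjusted p = 0.389) and *Rfc2* (0.11, adjusted p = 0.400) did not pass. The 4 falls with the smallest adjusted p follow.

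*Dna2*, a nuclease that resects breaks and trims replication flaps, fell 2.09-fold, to a log2 signal of 9.95 ± 0.26 with rTFF2, against 11.01 ± 0.20 with GM-CSF alone (SD, n = 4 each). *Rad18*, the ubiquitin ligase that calls in bypass polymerases such as that of *Polh*, was at 3.89 ± 0.23 with rTFF2 and 4.58 ± 0.22 with GM-CSF alone. *Fancl*, the ubiquitin ligase of the Fanconi core, was at 6.70 ± 0.23 with rTFF2 and 7.29 ± 0.14 with GM-CSF alone. *Gtf2h4*, a TFIIH subunit, was at 7.83 ± 0.10 with rTFF2 and 8.38 ± 0.17 with GM-CSF alone. The limma adjusted p were 0.000577 for *Dna2*, 0.00109 for *Rad18*, 0.00244 for *Fancl* and 0.00295 for *Gtf2h4*, and each gene was lower in 4 of 4 mice.

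The 3 that rose were *Rad17*, which loads the checkpoint clamp (log2 fold change 0.44, limma adjusted p = 0.00390), *Xab2*, a factor of transcription-coupled repair (0.42, adjusted p = 0.0140), and *Cdc25a*, the phosphatase that CHK1 targets for removal (0.35, adjusted p = 0.0428). All 3 were higher with rTFF2 in 4 of 4 mice, and the groups overlapped for *Cdc25a*, which did not pass without the block (adjusted p = 0.205). The probe sets of *Gtf2h4* and *Xab2* are of the x type, whose probes may also match other transcripts.

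**Figure D4:**
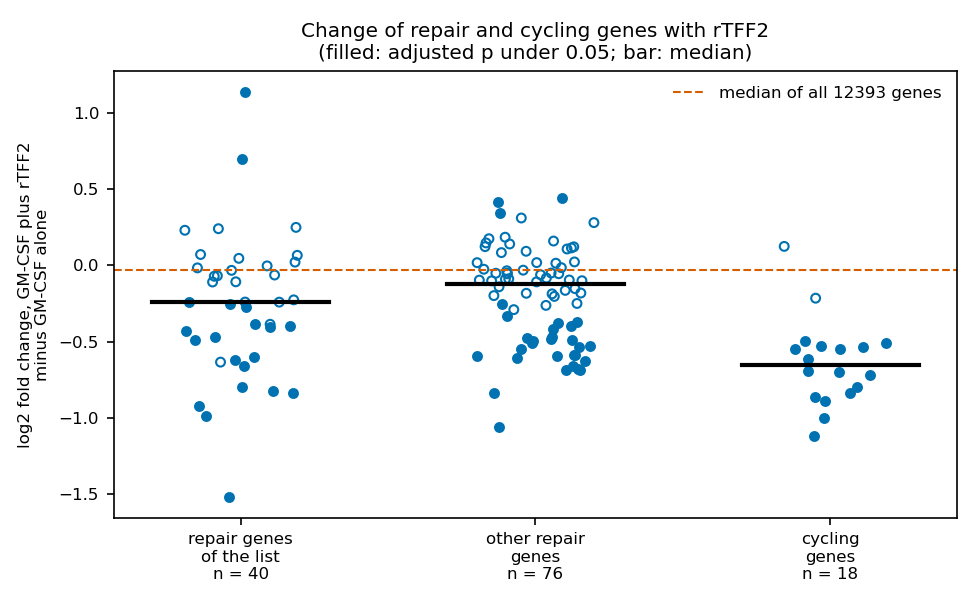
Change on the log2 scale (y axis, the cultures with rTFF2 minus those without) of the 40 repair genes of the list, 76 further repair genes and 18 cycling genes. Each point is a gene, filled where the adjusted p is under 0.05, bars are medians (-0.24, -0.12 and -0.66) and the dashed line is the median of all 12393 genes (-0.03).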

How the data were processed

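Affymetrix mouse arrays measured the RNA of 8 IMC cultures. The authors deposited log2 values from GCRMA, for which the submitters' processing notes list versions 2.30.0 of GCRMA and 1.36.0 of affy. It corrects each probe's background by its base content, equalizes the arrays' distributions and summarizes probes, and can understate fold changes of dim genes. The 8 array medians lay between 4.09 and 4.20, and precision is limited by how many arrays there are.

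Of 22690 probe sets, 64 controls were left out and 22626 were tested by limma 3.58.1 (lmFit, then eBayes, under R 4.3.3) with the mouse as a block and Benjamini-Hochberg adjustment over all of them at 0.05. The fit was tested on simulated data. The methods name limma without pairing, and a fit without the block was an alternative. Cultures were paired by the animal number in the labels, since the methods describe splitting every mouse's cells. Deviations from the group means correlated within mice 1 to 4 at 0.05, 0.54, 0.31 and 0.39, and at -0.54 to 0.34 between mice (13022 probe sets).

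Gene symbols came from the platform annotation: 20380 probe sets had 1 symbol, 691 several and 1555 none. The members and the lists were chosen with earlier results of these data known. Every member is named. Values per culture are given for up to 3 members of each role with the smallest adjusted p and for members that rose, and further repair genes by the 4 smallest adjusted p among falls and up to 4 rises. Promoters are from RefSeq (GRCm38.p6). *Rad50*, *Nbn*, *Exo1*, *Polb*, *Ercc3*, *Xpc*, *Ddb2*, *Prkdc* and *Rad21* were not matched in that table. Alternatives were a filter on dim probe sets, median centring, quantile normalization, array weights, a trended and robust prior, adding 32 to the linear values, the mean of a gene's probe sets, the *Actb* 3' to 5' difference as a covariate, a threshold of 0.01, a test against a 2-fold change and leaving out each mouse. The *Actb* covariate without the mouse term was added after seeing the data. The sources of the cells' GM-CSF dose differ, and the labels' value is printed.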

Additional observations from a re-analysis of the deposited data

Results flagged for a closer look

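Of 80 groups of 4 values (40 repair genes in each of the 2 groups), 2 held a value whose gap to the nearest other passed Dixon's 95% critical value as a share of the group's range, and chance alone gives about 1 in 20. *Ercc1*, of the nucleotide excision nuclease, was at 6.07 in the GM-CSF plus rTFF2 culture of mouse 1, with the other 3 cultures of that group at 5.81 to 5.85. *Ddb1*, of the UV damage-binding ligase, was at 8.20 in the GM-CSF alone culture of mouse 2, with the other 3 at 8.51 to 8.57. Neither gene was called in the comparison.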

How the results depend on the processing

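Without the replicate block, 14 members were called lower and 2 higher, beside 11.2% and 12.4% of all genes. *Rad50*, *Nbn*, *Chek1* and *Atr* were the calls lost, so that the block changed no other member's call. With the *Actb* 3' to 5' difference as a covariate and the replicate block, 2 members, 4 further repair genes and 490 of all genes were called lower, and 1 further repair gene and 523 of all genes higher. With that covariate without the mouse term, the counts lower were 4, 6 and 691, with 718 of all genes higher, and *Nbn* turned to a log2 fold change of 0.14 (limma adjusted p = 0.790). At a threshold of 0.01, 7 members, 16 further repair genes and 782 genes were lower, and 1 further repair gene and 1005 genes higher. Against a 2-fold change, 0 members and 0 further repair genes were called in either direction (limma's treat; at an unadjusted p under 0.05, 1 member, *Ung*, was lower), and 65 genes were lower and 60 higher. Leaving out 1 mouse gave 10 to 16 members, 19 to 27 further repair genes and 995 to 1418 genes lower, and 2 members, 1 to 2 further repair genes and 1211 to 1572 genes higher, each fit having fewer arrays. Median centring called 2103 genes lower and 1524 higher (42.0% of the calls higher, beside 52.1% without it), with 21 members lower and 2 higher. Adding 32 to the linear values, which shrinks dim genes, left 12 members lower, beside 9.36% of all genes. The cause of the other shifts was not tested. *Xrcc5*, *Rad52*, *Ercc2*, *Mgmt* and *Ogg1* lay close to or below background, which limits what was measured for them.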
